A study of Mus musculus with 2 samples.

Results

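The 36 genes described here are imprinted genes of the mouse, grouped by the chromosomal locus that each shares with its neighbours. They were chosen by name from textbook imprinted loci, and each was found in the deposited gene tables by its Ensembl identifier, which gave 35 of the 36 among the 43309 nuclear mouse genes listed. Peg13, a non-coding RNA inside Trappc9, was not analysed here. The samples were whole hindbrains of 2 untreated newborn mice of the inbred strain B6NCrl at postnatal day 0, pup 1 (replicate 1) and pup 3 (replicate 2), which form a single group. Both pups carry the same donor record, and their sex was not collected. A single library was made per pup from 13 pg of size-selected RNA (longer than 200 nt), an input described as 1 cell-equivalent, with reference to a Smart-seq protocol, in which such small inputs are amplified as cDNA.

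An imprinted gene is transcribed mainly from the chromosome inherited from one parent, because DNA methylation set in the egg or the sperm marks a control region that the cells of the offspring keep through development. Imprinted genes lie in clusters that join protein-coding genes with long non-coding RNAs, and a single control region can silence coding genes on one parental chromosome and the non-coding RNA on the other. In the brain many of them act on growth, neuronal differentiation and feeding, and some are imprinted in neurons but not in other tissues. The tables hold no count per parental allele, and in an inbred strain the alleles carry no difference to separate, so every level below is the sum over both chromosomes and the parental origin is background.

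Total expected counts were 35462381 in pup 1 and 29866728 in pup 3, and ERCC spike-ins took 2.31% and 2.18% of them. Levels are given in TPM (a share of transcripts on a fixed total, corrected for length) over nuclear genes, for each pup or as mean ± SD with n = 2. Detection means an expected count of 5 or more. Hindbrain markers were detected in both pups for 8 of 12 genes, all 10 pan-neuronal markers were, and of 10 forebrain markers 1 was, Neurod6 at 18.6 TPM in pup 1, against 49.4 TPM in pup 3. With 1 library per pup and 1 group there is no test, and a difference between the pups has no replicate check. Amplified reads are not independent molecules, so floors and intervals cover counting error only.

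The sequences that the results turn on belong to Gnas and 2 promoter windows. In Gnas the coding exon 3 is optional in the transcripts that start at the first exon of the stimulatory G protein subunit Gs-alpha. The exon has 45 bases (chr2:174336747-174336791, GRCm38, plus strand) and 15 codons, and is printed in capitals between 30 spliced bases on each side, from the GENCODE M21 transcript Gnas-208.
Gnas-208: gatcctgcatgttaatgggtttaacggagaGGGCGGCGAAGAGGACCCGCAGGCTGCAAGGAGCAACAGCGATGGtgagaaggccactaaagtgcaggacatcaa

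Promoter windows from 250 bases before to 50 bases after a start were taken from RefSeq (GRCm38.p6), where 28 of the members had 41 windows and all mouse genes together had 32817. The motif TGCCGC, read on both strands (GCGGCA on the other) and with 1 CpG site that also enters the CpG counts below, is the sequence that ZFP57 recognises when it is methylated. ZFP57 is a zinc finger protein that keeps methylation at imprinting control regions. The motif stood in 10 member windows (24.4%), against 11.6% of all windows, and 10 member genes held it: Grb10, Igf2, Meg3, Mest, Nap1l5, Nnat, Plagl1, Snrpn, Snurf and Zim1. These counts hold repeats: Mest has overlapping windows (from 30737800 and from 30737803) with the same motifs, and Snrpn and Snurf share a window. The median window held 13 CpG sites among members and 7 among all genes. These matches describe letters in a window and show no binding. The Nnat window (chr2:157559828-157560127, plus strand) and the window shared by Snurf and Snrpn (chr7:60005150-60005449, minus strand) are printed with the motif in capitals. They were chosen as windows of abundant coding members that hold the motif. The other Snrpn windows and the window of Ndn, at a mean of 1213 TPM, held none.
Nnat promoter: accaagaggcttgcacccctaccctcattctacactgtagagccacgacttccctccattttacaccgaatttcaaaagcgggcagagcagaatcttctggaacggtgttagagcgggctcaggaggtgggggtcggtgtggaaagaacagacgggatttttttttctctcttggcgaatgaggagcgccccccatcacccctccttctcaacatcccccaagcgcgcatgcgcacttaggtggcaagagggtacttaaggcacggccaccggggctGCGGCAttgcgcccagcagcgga
Snurf and Snrpn promoter: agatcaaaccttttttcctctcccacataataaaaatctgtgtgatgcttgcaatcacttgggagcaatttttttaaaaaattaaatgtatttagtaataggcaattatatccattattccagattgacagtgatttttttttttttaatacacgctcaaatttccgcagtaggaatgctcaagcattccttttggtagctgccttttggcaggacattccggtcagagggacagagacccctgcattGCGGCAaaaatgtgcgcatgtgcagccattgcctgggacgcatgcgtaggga
No window was found for Rtl1, H19, Cdkn1c, Peg10, Sgce, Impact and Trappc9.

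The highest imprinted genes were among the abundant transcripts of the newborn hindbrain. The levels of the 35 members summed to 10409 TPM in pup 1, against 9078 TPM in pup 3. The 6 highest, Nnat, Snrpn, Ndn, Meg3, Snurf and Inpp5f, held 81.8% of that sum in pup 1 and 76.8% in pup 3. Snurf is a short entry inside a Snrpn transcript, so its place among them is an estimate. The median member was at 26.7 TPM in pup 1, against 20.6 TPM in pup 3. The median protein-coding gene, with undetected genes included, was at 0.113 TPM in pup 1, against 0 TPM in pup 3. Among detected genes only, H19, ranked 18 of the 35 members by mean TPM, stood at the 59.9th percentile. Of the 35 members 25 were detected in both pups (71.4%), beside 20.6% of all nuclear genes. Coding members were detected in both pups in 20 of 29 cases, beside 37.8% of protein-coding genes, and non-coding members in 5 of 6 cases, beside 3.6% of long non-coding genes. The shares are above the background, and the members were chosen with earlier results of these data known.

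Detection followed the level. All 12 members with a mean of at least 100 TPM were detected in both pups, where 99.9% of the detected genes of that level were. Between 10 and 100 TPM the count was 9 of 10 members, beside 78.9% of genes, and between 1 and 10 TPM it was 3 of 8 members, beside 39.4%. Below 1 TPM, Trappc9 was the 1 of 5 members detected in both pups, beside 15.1% of detected genes. The 5 members include Zim1 and Phlda2, detected in neither pup, and such genes are left out of the 15.1%. Magel2, Mkrn3, Rtl1, Grb10, Zrsr1, Plagl1 and Airn were detected in pup 1 only, Usp29 in pup 3 only, and Zim1 and Phlda2 in neither. These 8 of the 33 detected members in 1 pup only stand beside 35.5% of all detected genes.

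**Figure D1:**
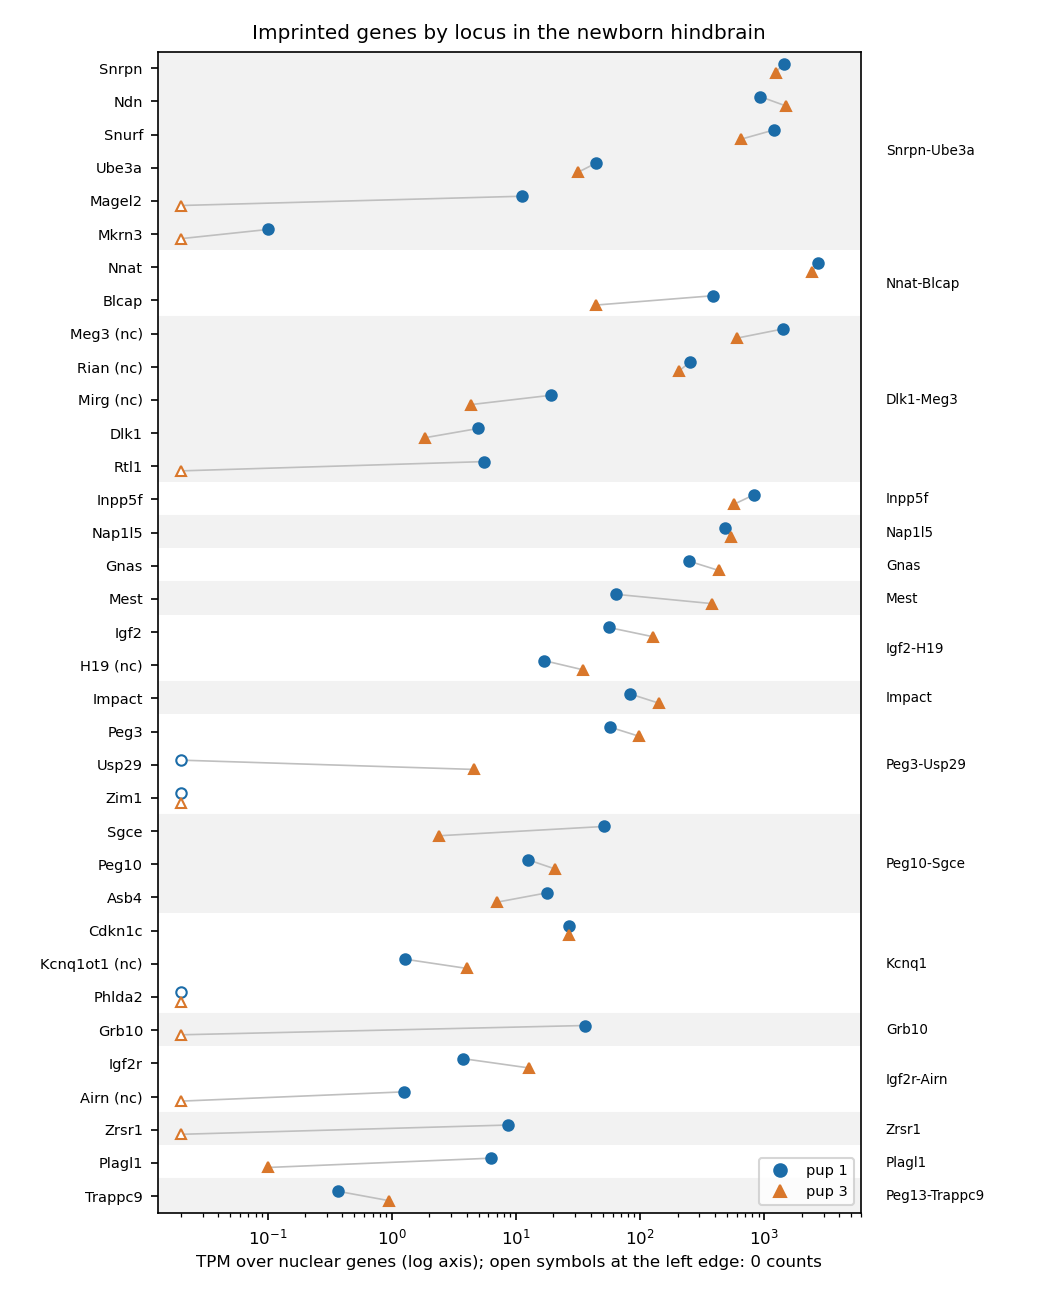
TPM of the 35 imprinted genes (log horizontal axis) in pup 1 (blue circles, upper) and pup 3 (orange triangles, lower), grouped by locus on alternate shading, with open symbols at the left edge for 0 counts and nc for non-coding RNAs. The 6 highest genes run from Nnat at 2570 TPM to Inpp5f at 700 TPM on average, with Nnat and Snrpn close between the pups and Meg3 2.37-fold higher in pup 1, and the 7 genes with an open symbol in only 1 pup are all below 40 TPM in the other.

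The locus of Nnat and Blcap on chromosome 2 (157556362 to 157571274, 14.9 kb) holds the most abundant single member. Nnat encodes neuronatin, a small membrane proteolipid of the endoplasmic reticulum in developing neurons, and is transcribed from the paternal chromosome out of an intron of Blcap on the opposite strand. Nnat was at 2717 TPM in pup 1, against 2423 TPM in pup 3 (2570 ± 207.7, SD, n = 2), with 60098 and 47162 counts. Pup 1 and pup 3 differed by 1.12-fold, and Nnat ranked first of the members in both. Blcap, a small membrane protein lost in bladder cancer, whose imprinting differs between its transcripts, was at 386 TPM in pup 1, against 44.3 TPM in pup 3. It was 8.70-fold higher in pup 1, so the host gene and the gene inside it did not differ between the pups to a like degree. The annotated exons of Nnat and Blcap share 0 bases.

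The 2 main coding forms of Nnat, which differ by an internal exon, held nearly constant shares. The short Nnat-205 took 61.42% of the Nnat TPM in pup 1 and 62.25% in pup 3, and the long Nnat-202 took 31.95% and 30.32%. The long form was thus the minor one in both pups, at 868 TPM in pup 1, against 735 TPM in pup 3.

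The locus from Ube3a to Mkrn3 on chromosome 7 (59228750 to 62420139) corresponds to the human region of the Prader-Willi and Angelman syndromes, and its 6 members together had the highest sum of any locus, 3614 TPM in pup 1, against 3407 TPM in pup 3. Snrpn encodes SmN, the neuronal form of a core protein of splicing particles, and shares its promoter and first exons with Snurf, a small upstream protein on the same paternal transcript. Snrpn was at 1428 TPM in pup 1, against 1230 TPM in pup 3 (1329 ± 139.6, SD, n = 2). Snurf was at 1200 TPM in pup 1, against 650 TPM in pup 3, a difference of 1.85-fold. The Snurf entry has 216 bases, all of which lie inside Snrpn-201 and inside a transcript of Gm38393, so how its reads were shared out is an estimate. TPM divides by length, so 2910 counts gave Snurf 1200 TPM in pup 1, where Snrpn had 54375 counts. In pup 1 the first rank of the locus sum rests on counting Snurf beside Snrpn, since Nnat and Blcap summed to 3102 TPM there. Gm38393 itself had 6.59 TPM in pup 1, against 53.0 TPM in pup 3. Summed, Snrpn, Snurf and Gm38393 gave 2635 TPM in pup 1, against 1933 TPM in pup 3, a log2 ratio of 0.45 in a sum chosen after the values were seen.

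Ndn encodes necdin, a MAGE family protein that promotes the differentiation and survival of neurons. Ndn was at 930 TPM in pup 1, against 1496 TPM in pup 3 (1213 ± 400, SD, n = 2), the highest coding member after Nnat in pup 3. Its neighbour Magel2, a MAGE protein of endosomal protein recycling, had 1063 counts in pup 1 and 0 in pup 3, at 11.2 TPM in pup 1. Against a floor of 3 counts in pup 3, that is at least 299.5-fold higher in pup 1. Mkrn3, a ubiquitin ligase known as a brake on puberty, had 5 counts in pup 1 and 0 in pup 3. Of the MAGE genes side by side, Ndn was thus high in both pups and Magel2 was found in pup 1.

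Ube3a, the ubiquitin ligase that neurons express from the maternal chromosome, was at 44.2 TPM in pup 1, against 31.5 TPM in pup 3. Snhg14, the antisense RNA that reaches Ube3a and that carries the snoRNAs of the locus, was at 123 TPM in pup 1, against 106 TPM in pup 3. The exons of Ube3a and Snhg14 share 1803 bases on opposite strands, and with the use of strand not given in the sources used here, these levels may share reads. The 210 snoRNA and 20 miRNA genes annotated in the span of the locus all had 0 counts in both pups, in libraries made from RNA longer than 200 nt.

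The Dlk1-Meg3 locus on chromosome 12 (109452823 to 109749460) was read almost wholly as non-coding RNA. Its members summed to 1699 TPM in pup 1, against 807 TPM in pup 3, and Meg3, Rian and Mirg held 99.4% of that sum in pup 1 and 99.8% in pup 3. Meg3, a long RNA of the maternal chromosome, was at 1417 TPM in pup 1, against 597 TPM in pup 3 (1007 ± 580, SD, n = 2), which is 2.37-fold higher in pup 1. Rian, the maternal host RNA of a snoRNA cluster, was at 252 TPM in pup 1, against 204 TPM in pup 3. Mirg, the host RNA of a miRNA cluster, was at 19.2 TPM in pup 1, against 4.38 TPM in pup 3, a 4.38-fold difference in TPM that fell short of 4-fold once 1 TPM was added to both. All 3 were higher in pup 1, in the order Meg3, Rian, Mirg in each pup.

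The coding members of the same locus come from the paternal chromosome and were low. Dlk1, a membrane protein of the Notch ligand family that keeps progenitor cells undifferentiated, was at 4.98 TPM in pup 1, against 1.85 TPM in pup 3, with 164 and 30 counts. Rtl1, a retrotransposon-derived gene best known from placental vessels, had 720 counts in pup 1 and 0 in pup 3, at least 202.9-fold higher in pup 1. In the span between Dlk1 and Mirg, 58 miRNA and 23 snoRNA genes are annotated, and all had 0 counts in both pups.

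**Figure D2:**
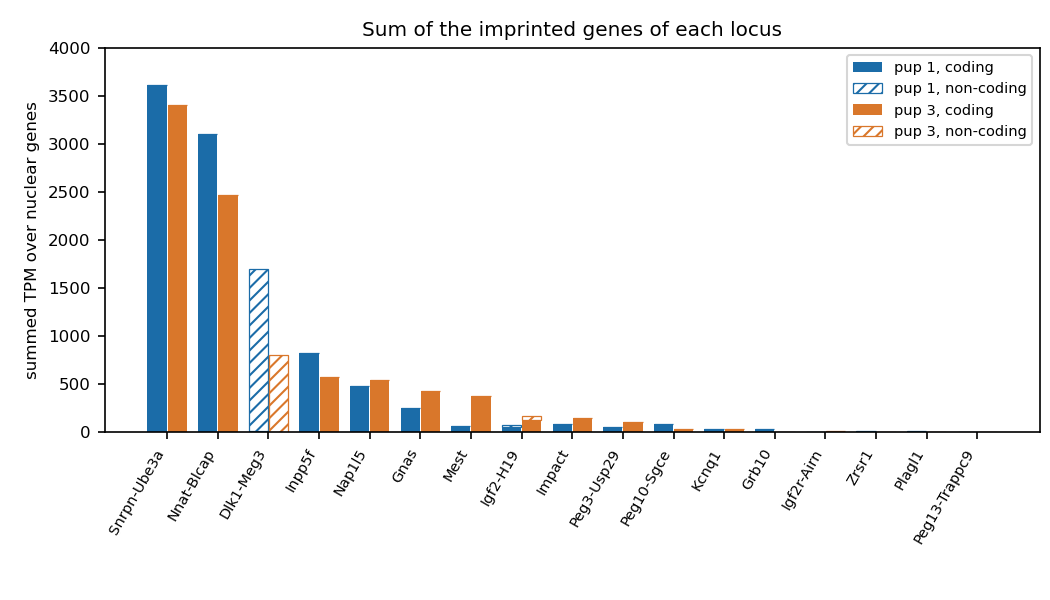
Sum of TPM over the members of each of 17 loci, in pup 1 (blue, left) and pup 3 (orange, right), with solid bars for coding members and hatched bars for non-coding members. Snrpn-Ube3a and Nnat-Blcap are the tallest pairs, and Dlk1-Meg3 is the one tall pair that is hatched, at 1699 TPM in pup 1, against 807 TPM in pup 3.

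Meg3 differed between the pups in its transcripts as well as its level. Meg3-205, of 1498 nt, took 48.04% of the Meg3 TPM in pup 1 and 22.54% in pup 3. Meg3-203, of 457 nt, took 8.09% in pup 1 and 46.09% in pup 3, so the leading transcript was not the same. Meg3-209, of 14548 nt, took 7.35% of TPM in pup 1 and 13.88% in pup 3, yet held 41.7% and 75.2% of the Meg3 counts, because TPM divides by length. Meg3-211 (9.48% in pup 1 and 4.29% in pup 3), Meg3-202 (4.29% and 7.55%) and Meg3-207 (6.52% and 5.25%) were the others with a mean of at least 5%. Gm26906, on the opposite strand, shares 1228 exon bases with Meg3 and had 0 counts in pup 1 and 32.65 in pup 3.

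Gnas, on chromosome 2 (174284320 to 174346744), encodes several proteins from alternative first exons. The Gs-alpha exon gives the stimulatory G protein subunit that couples receptors to cyclic AMP, and is transcribed from both chromosomes in most tissues. The Nesp exon gives a maternal neuroendocrine secretory protein, the XL exon a paternal long form of Gs-alpha, and exon 1A a paternal RNA that is not translated. Gnas as a whole was at 247 TPM in pup 1, against 428 TPM in pup 3 (337 ± 128, SD, n = 2).

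The Gs-alpha transcripts were estimated at the same level in the pups, and those from exon 1A and Nesp were not. Transcripts that start at the Gs-alpha exon reached 204.1 TPM in pup 1, against 203.8 TPM in pup 3, which was 82.75% of Gnas in pup 1 and 47.63% in pup 3. Transcripts from exon 1A were at 41.4 TPM in pup 1, against 178 TPM in pup 3, or 16.78% and 41.67% of the gene. Transcripts from the Nesp exon had 0 counts in pup 1 and 1618 counts in pup 3, where they took 8.75%. The XL class held 6.33 counts in pup 1 and 0 in pup 3. By these estimates the difference in the gene total lay mostly in exon 1A and Nesp transcripts. Transcripts of the classes overlap along much of the gene, so how reads were shared out among them is uncertain. Gm20721, annotated on the opposite strand within Gnas, shares 1469 exon bases with it and had 9.74 TPM in pup 1, against 78.0 TPM in pup 3, higher in the same pup as the exon 1A and Nesp classes. Its part in these shares was not tested.

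Within the Gs-alpha class, Gnas-208 holds the 45-base exon printed above and Gnas-206 lacks it. Gnas-208 took 61.67% of the Gnas TPM in pup 1 and 39.15% in pup 3, and Gnas-206 took 21.08% and 8.48%. Of the 2 together, the form with exon 3 made up 74.5% in pup 1 and 82.2% in pup 3. The exon 1A class was led by Gnas-221, at 10.28% in pup 1 and 33.08% in pup 3, followed by Gnas-212 at 3.78% and 8.33%.

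Snrpn was the most even of the 3 genes read by transcript. Snrpn-201 took 96.53% of the Snrpn TPM in pup 1 and 93.55% in pup 3 (95.04 ± 2.11, SD, n = 2), and Snrpn-202 the remaining 3.47% and 6.45%. Across all members with more than 1 transcript and counts in both pups, 11 of 20 had the same leading transcript by TPM in the pups. The share over all genes was not computed, so this count is not a trait of imprinted genes.

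In the other 9 the leading transcript differed between the pups, among them Meg3, Sgce, Igf2, H19 and Rian. Some rest on few reads: in the pup with fewer, Plagl1 had 3 counts, Trappc9 25, Dlk1 30, Sgce 67 and Mirg 123. By counts in place of TPM, Meg3-209 led Meg3 in both pups, with 41.7% in pup 1 and 75.2% in pup 3. Rian-202 likewise led Rian by counts, with 47.5% and 67.5%. The leads of Igf2 by counts were narrow. In pup 1 Igf2-208 had 38.3%, beside 37.7% for Igf2-202. In pup 3 Igf2-202 had 26.0%, beside 25.6% for Igf2-203. H19 and Sgce kept different leading transcripts in the pups by counts too. Sgce was led by Sgce-202 in pup 1 (70.16%) and by Sgce-201 in pup 3 (70.19%), the second over 67 counts for the gene. Igf2 was led by Igf2-208, a non-coding form of 958 nt, in pup 1 (63.07%) and by Igf2-203, a coding form of 650 nt, in pup 3 (51.73%). H19-202 took 63.43% of H19 in pup 1 and 12.46% in pup 3, where H19-205 led with 87.54%. Mest kept its lead, with Mest-211 at 75.76% in pup 1 and 44.95% in pup 3, and so did Peg3 (Peg3-201, 90.29% and 96.91%) and Blcap (Blcap-202, 84.05% and 92.93%). Rian was split, with Rian-202 at 27.50% in pup 1 and 38.99% in pup 3 and Rian-211 at 34.33% and 27.31%.

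**Figure D3:**
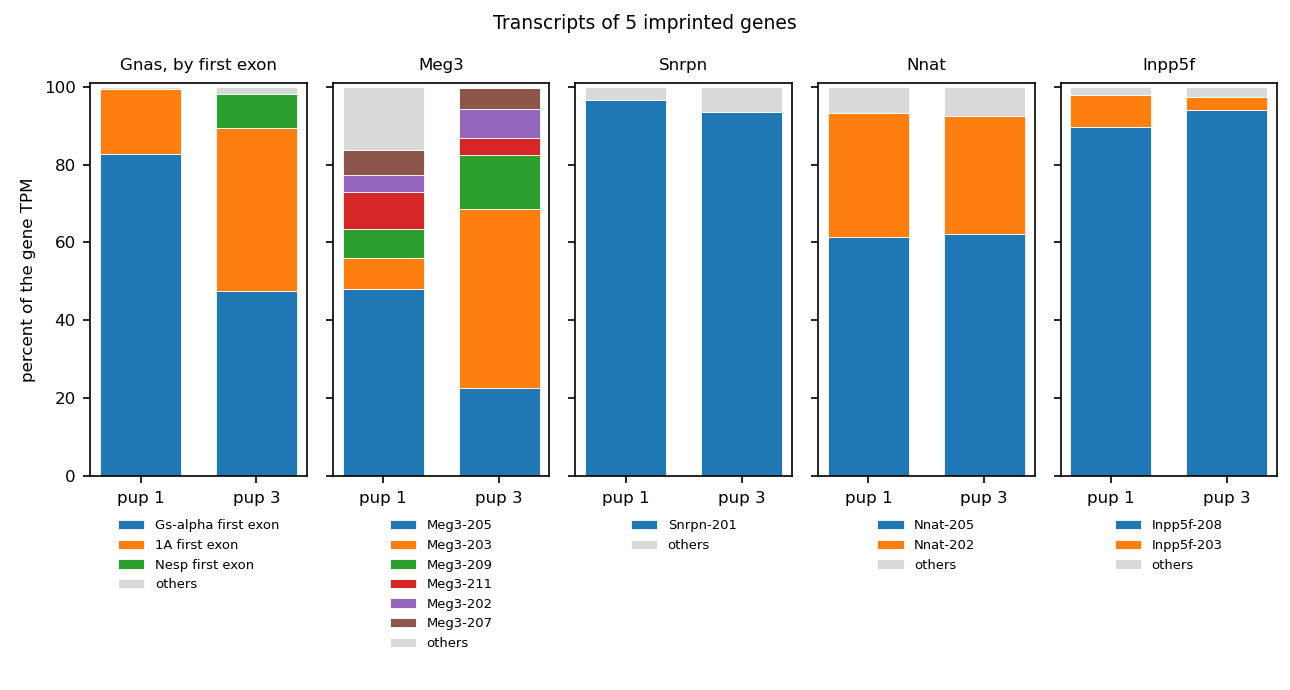
Percent of the gene TPM (vertical axis, 0 to 100) taken by the first-exon classes of Gnas and by the transcripts of Meg3, Snrpn, Nnat and Inpp5f, with pup 1 as the left bar and pup 3 as the right bar of each panel. Transcripts with a mean under 5% are joined as others in grey. For Gnas the Gs-alpha, 1A and Nesp classes are drawn, and XL and other starts are joined as others. Snrpn, Nnat and Inpp5f have bars that are nearly alike, while the 1A class of Gnas grows to 41.67% in pup 3, against 16.78% in pup 1, and Meg3-203 to 46.09%, against 8.09%.

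Inpp5f encodes a phosphatase of membrane phosphoinositides, and a variant that starts inside the gene is known to be transcribed from the paternal chromosome in mouse brain. Inpp5f was at 826 TPM in pup 1, against 573 TPM in pup 3 (700 ± 178, SD, n = 2). Inpp5f-208, which begins 76.2 kb inside the gene and has 6 exons, took 89.69% of that in pup 1 and 94.03% in pup 3. Inpp5f-201, the full-length form of 20 exons, took 0.94% and 0.27%. By these estimates the high level of the gene lay in the inner starts, which together held 99.1% in pup 1 and 97.2% in pup 3. Inpp5f-208 lies within the span of Inpp5f-201, so how reads were shared out between them is uncertain.

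Nap1l5, a paternally expressed retrogene of the nucleosome assembly protein family inside an intron of Herc3, was at 481 TPM in pup 1, against 539 TPM in pup 3 (510 ± 40.7, SD, n = 2). Herc3, a ubiquitin ligase gene on the opposite strand, had 1624 counts in pup 1 and 0 in pup 3. Nap1l5 was thus near even between the pups where its host was not, as Nnat was inside Blcap. Zrsr1, a paternal retrogene related to the splicing factor U2AF inside Commd1, was in the opposite position. It had 571.3 counts in pup 1 and 0 in pup 3, at least 161-fold higher in pup 1, while Commd1, a regulator of copper handling and protein sorting, was at 66.8 TPM in pup 1, against 225 TPM in pup 3. Zrsr1 and Commd1 share 412 exon bases on opposite strands.

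The fetal growth genes Igf2 and H19 on chromosome 7 (142575529 to 142666816) were higher in pup 3. Igf2, an insulin-like growth factor that in the brain comes largely from the choroid plexus and the meninges, was at 55.7 TPM in pup 1, against 127 TPM in pup 3 (91.4 ± 50.4, SD, n = 2). H19, the maternal non-coding RNA next to it, was at 16.9 TPM in pup 1, against 35.0 TPM in pup 3. The folds in TPM were 2.28 for Igf2 and 2.07 for H19, and both were smaller by scaled counts. The log2 ratio of pup 1 over pup 3 was -0.76 for Igf2 by counts with TMM factors, against -1.17 by TPM. For H19 it was -0.87, against -1.01. The H19 share of the locus was 23.2% in pup 1 and 21.6% in pup 3. Mest, a paternal gene for a hydrolase-like protein of mesodermal tissue, was at 63.6 TPM in pup 1, against 376 TPM in pup 3, which is 5.92-fold higher in pup 3. By scaled counts Mest was only just past 4-fold. Its log2 ratio was -2.03 with TMM factors and -2.004 with DESeq2 factors, against -2.55 by TPM. In a bulk library, fewer cells of a type and less RNA per cell cannot be told apart.

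Markers of meningeal fibroblasts, of the choroid plexus and of red blood cells moved in part with these genes. Of 9 meningeal markers 7 were detected in both pups, and their sum was 341 TPM in pup 1, against 462 TPM in pup 3. Dcn was at 84.6 TPM in pup 1, against 167 TPM in pup 3, but Col3a1 was at 71.7 TPM in pup 1, against 17.1 TPM in pup 3. Aldh1a2 had 2 counts in pup 1, against 2005 in pup 3, Foxc1 had 814 in pup 1, against 15 in pup 3, and Lum had 1 in pup 1, against 0 in pup 3. Of 8 choroid plexus markers 5 were detected in both pups, Kl and Clic6 had 0 counts in both, and the sum was 3271 TPM in pup 1, against 3687 TPM in pup 3, nearly all of it Ttr (3028 TPM in pup 1, against 3380.4 TPM in pup 3). The choroid plexus markers past 4-fold ran in opposite directions, with Otx2 at 5 counts in pup 1 and 2817 in pup 3, and Kcne2 at 807 counts in pup 1 and 0 in pup 3. Of 7 erythroid markers 4 were detected in both pups, all of them globin genes, and the sum was 1486 TPM in pup 1, against 3941 TPM in pup 3. Hbb-bs was at 231 TPM in pup 1, against 1101 TPM in pup 3, and Hba-a2, which has a near-identical copy in Hba-a1, at 763 TPM in pup 1, against 1911 TPM in pup 3. Alas2, the heme synthesis enzyme of erythroid cells, had 909 counts in pup 1, against 0 in pup 3. The part of these cells and tissues in the levels of Igf2, H19 and Mest was not tested.

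Igf2r, the receptor that clears IGF2 into lysosomes, was at 3.77 TPM in pup 1, against 12.8 TPM in pup 3, 3.39-fold higher in pup 3. Airn, the paternal antisense RNA that silences Igf2r in most tissues but not in neurons, had 10 counts in pup 1 and 0 in pup 3, which is too few to say that it differed. Grb10, an adaptor that dampens insulin and IGF receptor signalling and is paternal in neurons, had 2919 counts in pup 1 (35.8 TPM) and 0 in pup 3. Against the floor of 3 counts it was at least 822-fold higher in pup 1, the largest bound among the members. Plagl1, a zinc finger factor that restrains cell growth, had 669 counts in pup 1 and 3 in pup 3. The ratio of their shares of nuclear counts was 188.5, with a 95% counting interval of 64.2 to 916.

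The Kcnq1 locus on chromosome 7 (143203458 to 143503150) carried 1 steady coding gene. Cdkn1c, the maternal p57 inhibitor of cyclin-dependent kinases that takes progenitors out of the cell cycle, was at 26.7 TPM in pup 1, against 26.9 TPM in pup 3 (26.8 ± 0.126, SD, n = 2), the smallest log2 ratio among the detected members on this scale. Kcnq1ot1, the paternal antisense RNA that silences the cluster, was at 1.28 TPM in pup 1, against 4.04 TPM in pup 3. Over its length of 84395 nt that was 2222 counts in pup 1 and 6217 in pup 3, so Kcnq1ot1 took 4.55% and 13.1% of the locus in TPM but 69.1% and 87.6% in counts. Its host Kcnq1 had 0 counts in both pups, and so did Phlda2, a maternal regulator of placental growth, where 0 counts allow up to 0.220 TPM in pup 1, against 0.250 TPM in pup 3.

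At the Peg3 locus on chromosome 7 (6671269 to 6967219), Peg3, a paternal zinc finger protein of neurons, was at 56.7 TPM in pup 1, against 97.95 TPM in pup 3 (77.3 ± 29.2, SD, n = 2). Usp29, a ubiquitin protease gene, was read through 1 transcript in the deposited tables, Usp29-201, a single exon (6961160 to 6963769) far from the RefSeq start of the gene next to Peg3. It had 0 counts in pup 1 and 210 in pup 3, where it was at 4.58 TPM. Usp29 was at least 82.8-fold higher in pup 3. Zim1, a maternal zinc finger gene, had 0 counts in both pups, which allows up to 0.0473 TPM in pup 1, against 0.0537 TPM in pup 3. Peg3 was thus the 1 member of the 3 with counts in both pups.

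The neighbours Peg10 and Sgce on chromosome 6 start head to head and are both paternal, and they differed in opposite directions. Peg10, a retrotransposon-derived gene needed in the placenta, was at 12.4 TPM in pup 1, against 20.6 TPM in pup 3. Sgce, the epsilon-sarcoglycan whose human form is mutated in myoclonus dystonia, was at 50.8 TPM in pup 1, against 2.39 TPM in pup 3, or 21.3-fold higher in pup 1. Asb4, a maternal subunit of ubiquitin ligases, was at 17.8 TPM in pup 1, against 7.08 TPM in pup 3. Between them on the chromosome, Ppp1r9a, a neuronal actin-binding protein, was at 54.3 TPM in pup 1, against 7.92 TPM in pup 3, and Pon2, a paraoxonase, at 54.2 TPM in pup 1, against 57.8 TPM in pup 3.

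Impact, on chromosome 18 (12955852 to 12992950), is a paternal inhibitor of the stress kinase GCN2 that is abundant in neurons. Impact was at 82.3 TPM in pup 1, against 141 TPM in pup 3 (112 ± 41.4, SD, n = 2). Trappc9, a vesicle trafficking subunit and the host of Peg13, was at 0.373 TPM in pup 1, against 0.949 TPM in pup 3, with 25 and 66 counts.

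The pups were compared at a threshold of 4-fold on log2 of TPM + 1, among the 31 members with at least 50 counts in at least 1 pup. Past it were 9 members (29.0%), beside 40.7% of all 12300 genes so filtered. Higher in pup 1 were 7 (Blcap, Magel2, Rtl1, Grb10, Zrsr1, Plagl1 and Sgce), beside a background of 24%, and higher in pup 3 were 2 (Mest and Usp29), beside 16.7%. The share of members is below the share of all genes. Of these 9, only Blcap and Mest had a mean of at least 100 TPM. Of the 12 members of that level 3 were past 2-fold, Meg3, Blcap and Mest, beside 27.3% of all genes of that level.

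The members showed no common shift towards either pup. Over the 33 members detected in at least 1 pup log2 of pup 1 over pup 3 had a median of 0.21, beside 0.17 over all 13847 such genes, and 19 members were higher in pup 1 and 14 in pup 3. Over the 25 members detected in both pups the median was -0.01, beside -0.12 over 8931 genes. Among the 12 members with at least 100 TPM the median absolute log2 ratio was 0.73, beside 0.61 over 1873 genes.

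**Figure D4:**
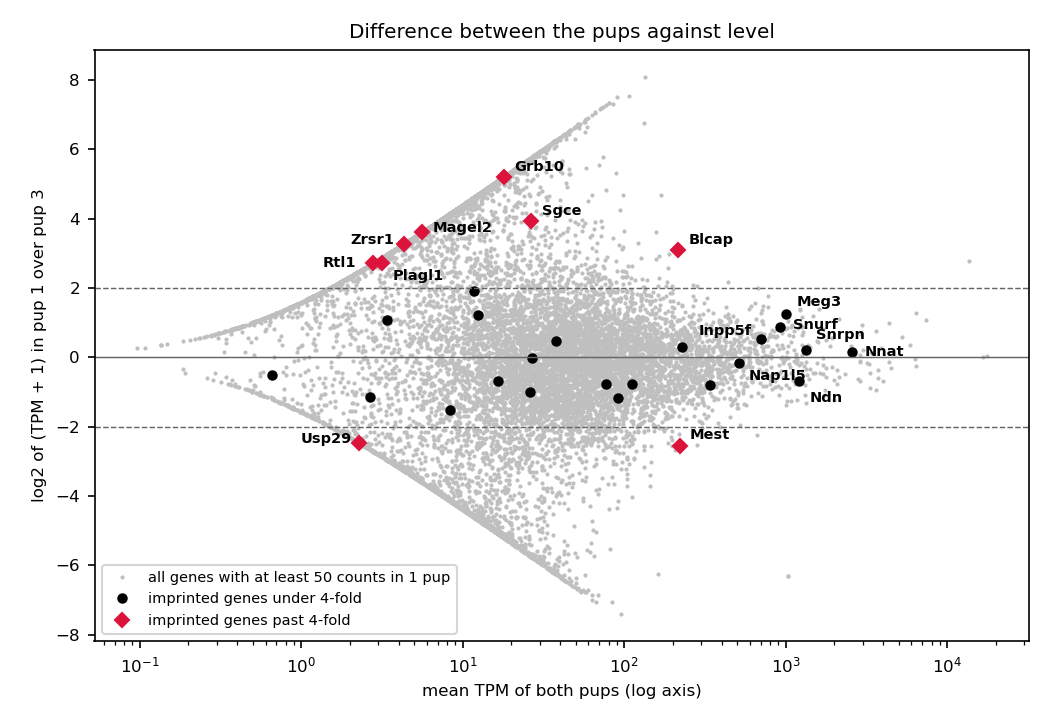
Log2 ratio of TPM + 1 in pup 1 over pup 3 (vertical axis) against the mean TPM of both pups (log horizontal axis) for the 12300 genes with at least 50 counts in at least 1 pup (grey) and the 31 members among them, black under 4-fold and red past it, with dashed lines at 4-fold. Of the 9 red members 7 lie above the upper line and 2 below the lower line, and those along the edges of the grey cloud had 0 to 3 counts in 1 pup.

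Grouped by the parental chromosome that textbooks name, the 20 paternally expressed members held 68.4% of the members' TPM in pup 1 and 78.4% in pup 3. The 8 maternally expressed members held 16.8% in pup 1 and 9.63% in pup 3, most of it Meg3. The 7 members whose imprinting depends on the tissue, such as Gnas, Ube3a, Blcap and Inpp5f, held 14.8% in pup 1 and 12.02% in pup 3. The paternal sum was 7117 TPM in pup 1, against 7113 TPM in pup 3. It counts Snurf (1200 TPM in pup 1, against 650 TPM in pup 3) beside Snrpn, so its evenness depends on that estimate. The maternal sum was 1749 TPM in pup 1, against 874 TPM in pup 3.

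Genes that maintain imprints were mostly present. Of 20 such genes, a list drawn up with earlier results known, 16 were detected in both pups (80%), beside 37.8% of protein-coding genes. Of the 17 with at least 50 counts in a pup 6 were past 4-fold (35.3%), 3 in each direction, which is near the 40.7% of all genes so filtered. Zfp57 was at 62.1 TPM in pup 1, against 124 TPM in pup 3, and its co-repressor Trim28 at 60.6 TPM in pup 1, against 148 TPM in pup 3. Dnmt3a, a de novo DNA methyltransferase of neurons, was at 85.4 TPM in pup 1, against 74.8 TPM in pup 3, and Arid4a, a chromatin regulator of the Prader-Willi locus in mice, at 27.9 TPM and 81.5 TPM. Higher in pup 1 were Ctcf, the insulator protein (55.3 TPM in pup 1, against 9.67 TPM in pup 3), the histone methyltransferase Ehmt2 (71.9 and 11.01 TPM) and Tet2. Higher in pup 3 were Zfp445, a second imprint-keeping zinc finger protein (5.48 TPM in pup 1, against 41.9 TPM in pup 3), Uhrf1 (0.7001 and 21.3 TPM) and Tet1. Dnmt3l, Dnmt3b and Dppa3, known from germ cells and early embryos, had 0 counts in both pups.

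Of 46 further imprinted genes, 21 were detected in both pups (45.7%), beside 37.8% of protein-coding genes and 20.6% of all nuclear genes. Of the 26 with at least 50 counts in a pup 8 were past 4-fold (30.8%), beside 40.7% of all genes so filtered. Higher in pup 1 were 7 (26.9%), near the 24% of all genes, and higher in pup 3 was 1 (3.85%), beside 16.7%. The highest was Cd81, a tetraspanin, at 1022 TPM in pup 1, against 1037 TPM in pup 3. Bcl2l1, the survival factor Bcl-x, was at 179 TPM in pup 1, against 127 TPM in pup 3, and Nap1l4, a nucleosome assembly protein, at 221.5 TPM in pup 1, against 63.3 TPM in pup 3. The gene higher in pup 3 was Calcr, the calcitonin receptor, with 0 counts in pup 1 and 1575 in pup 3. Among those higher in pup 1 were Slc38a4, an amino acid transporter (1934 counts in pup 1 and 0 in pup 3), and Ddc, the decarboxylase of dopamine and serotonin synthesis (728 and 2 counts). Slc38a4, Mcts2, Herc3 and Cdh15 had 0 counts in pup 3, and Ddc, Cobl and Ppp1r9a had some.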

How the data were processed

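RNA of 2 hindbrain libraries was read from the deposited gene and transcript tables, made on mm10 with annotation M4 per the notes that accompany them. Per the file headers, the authors gave for each gene an expected count, in which reads shared among transcripts are split, with TPM and FPKM, and for each transcript its percent of the gene TPM. With the aligner, quantifier and use of strand not given in the sources used here, overlapping genes stay uncertain. Symbols, coordinates and exons came from GENCODE M21 (98.0% of 43346 mouse identifiers matched), and TPM was rescaled over 43309 nuclear genes. Folds use a pseudocount of 1, which understates low genes, and a floor of 3 counts where a library had 0. Intervals are at 95%. Python 3.11.15 and R 4.3.3 were used, with edgeR 4.0.16 and DESeq2 1.42.0 for scaling factors on rounded expected counts.

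The members and lists were chosen with earlier results of these data known. All 36 members are named, together with the 4 highest genes of another list, those past 4-fold, overlapping genes and the 3 highest genes in a locus span, not all of them in the text. Genes of other lists at 0 or 1 count, and transcripts outside Gnas, Snrpn and Meg3, were named after their values were seen. Of the listed genes, 4 further imprinted ones and Gcn1 had no match. Alternatives were other detection limits, folds, filters, pseudocounts and scalings, and each library alone.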

Additional observations from a re-analysis of the deposited data

How the results depend on the processing

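The count of members detected in both pups stayed within 1.5 times of 25 under every alternative run. The count past 4-fold, 9 of 31, became 17 at 2-fold and 5 at 8-fold, since fewer or more genes pass another fold, and 4 with a pseudocount of 5, which shrinks low genes. The median log2 ratio of 0.21 turned to -0.0092 over the members detected in both pups, which leaves out those with 0 counts in a pup. With TMM or DESeq2 factors the median over all genes detected in both pups was -0.02 and 0.01 in place of -0.12, so directions near 0 (Cdkn1c) depend on the scaling. Of 132 single log2 ratios under another scaling, 1 changed its side of 4-fold, Usp29 at -1.93 with FPKM. The paternal share of 73.4% became 84.7% without the members of tissue-dependent imprinting. By counts in place of TPM, the non-coding share of Igf2-H19 was 29.9%, against 22.4%, and that of Kcnq1 78.3%, against 8.80%, because counts grow with length. With a library left out, values are those of the other pup: 68.4 to 78.4% for the paternal share, 39.15 to 61.67% for Gnas-208, 93.55 to 96.53% for Snrpn-201 and 22.54 to 48.04% for Meg3-205. The non-coding share of Peg13-Trappc9 was not run, since Peg13 was not analysed here. Summing Snrpn, Snurf and Gm38393 gave a log2 ratio of 0.45, and Gnas with Gm20721 gave -0.98, both chosen after seeing the data. No paired analysis was possible because the 2 libraries form 1 group. With 1 library per pup of 13 pg, 0 counts in a pup cannot tell an absent transcript from one lost before amplification, and overlapping genes cannot be told apart without strand.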

Other observations

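Genes whose products work with the imprinted ones were mostly present: of 38 listed partners 31 were detected in both pups (81.6%), beside 37.8% of protein-coding genes. Of the 35 with at least 50 counts in a pup 7 were past 4-fold (20%), 3 higher in pup 1 and 4 higher in pup 3, a share below the 40.7% of all genes so filtered. Gnb1, a G protein beta subunit that pairs with Gs-alpha, was at 1521 TPM in pup 1, against 845 TPM in pup 3, and Nedd4, a ubiquitin ligase that binds Grb10, at 360.5 TPM in pup 1, against 182 TPM in pup 3. Snrpb and Snrpd1, core proteins of splicing particles like SmN, were at 259 and 190 TPM in pup 1 and at 169.6 and 195 TPM in pup 3. Eif2ak4, the GCN2 kinase that Impact inhibits, had 0 counts in pup 1 and 4253 in pup 3, at least 1677-fold higher in pup 3.

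Among the partners past 4-fold, the receptor Igf1r was at 1.12 TPM in pup 1, against 16.0 TPM in pup 3, the IGF2 mRNA-binding protein Igf2bp3 at 4.95 TPM in pup 1, against 36.8 TPM in pup 3, and the adaptor Grb14 at 3.16 TPM in pup 1, against 33.6 TPM in pup 3. Higher in pup 1 were Igf1, at 26.0 TPM in pup 1, against 3.18 TPM in pup 3, and Cdkn1b, a relative of Cdkn1c, at 34.2 TPM in pup 1, against 4.85 TPM in pup 3. Sgcd, a sarcoglycan like Sgce, had 1131 counts in pup 1 and 0 in pup 3, at least 318.7-fold higher in pup 1. Igf2bp1 had 0 counts in both pups.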
